A study of Arabidopsis thaliana with 24 samples.

Results

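WRKY, NAC, MYB and bHLH proteins are families of plant transcription factors, and 12 of the 22217 probe sets measured here named a single gene with such a family name followed by a number. The members were chosen by the symbol in the platform annotation alone, with an optional AT prefix and with ANAC read as NAC. They were 6 WRKY genes, 1 NAC gene and 5 bHLH genes, each with 1 probe set, and 0 probe sets carried a MYB name under this rule. The WRKY genes were WRKY6 (AT1G62300), WRKY20 (AT4G26640), WRKY22 (AT4G01250), WRKY42 (AT4G04450), WRKY47 (AT4G01720) and WRKY53 (AT4G23810). The NAC gene was NAC014 (AT1G33060). The bHLH genes were bHLH34 (AT3G23210), bHLH104 (AT4G14410), bHLH115 (AT1G51070), bHLH121 (AT3G19860) and BHLH101 (AT5G04150). The annotation gave 1 gene to 13171 probe sets, several genes to 482 and no listed gene to 8564, and other members of these families were not analysed here. A gene of a list is called measured below only where a probe set named it alone. The other genes of a list may still have a probe set that the annotation does not name in this way.

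RNA came from whole 4-day-old seedlings of Arabidopsis thaliana, ecotype Col-0. All groups shared cold stratification, a light pulse that started germination and 4 days of growth in darkness at 22 °C. Seedlings were then taken from the dark (0 min) or after 30 or 120 min of white light at 120 µmol m-2 s-1. Wild-type seedlings (wt) were compared with 3 mutants, each represented by 1 allele: fc2-1 (fc2) and fc1-1 (fc1), which affect the ferrochelatases, and flu. The 12 groups of a genotype and a time held 2 arrays each, labelled biological replicates, 24 in all. How the replicates were raised is not stated in the labels, and the p-values reflect no more than the scatter among these 24 arrays, part of which may be technical. FC1, FC2 and FLU themselves were not analysed here, so the genotypes rest on the labels.

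WRKY proteins bind W-box elements in promoters and are best known from defence, wounding and senescence. NAC proteins act in development and in stress and senescence, and some are held in a membrane until they are released. MYB proteins of one large subfamily switch on flavonoid synthesis in the light. All 5 bHLH members belong to the circuit that governs iron uptake: bHLH34, bHLH104 and bHLH115 form a group (IVc) that switches on the genes of a second group (Ib), to which BHLH101 belongs, and bHLH121 (also named URI) works as their partner. Ferrochelatases insert iron into protoporphyrin IX to make haem, and FLU holds back tetrapyrrole synthesis in darkness, so that dark-grown flu seedlings accumulate protochlorophyllide and produce singlet oxygen when they are lit.

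Values are the deposited RMA signals on the log2 scale, and a level is comparable between arrays for 1 probe set but not between probe sets. A change is the difference of 2 group means ± SE from 1 limma fit over all 24 arrays (n = 2 arrays per group), with adjusted p by Benjamini-Hochberg over all 22217 probe sets. All comparisons of a mutant with wt at 1 time share the wt arrays, and both light responses of a genotype share its dark arrays. A gene is said to have risen or fallen, or to be higher or lower, where the adjusted p was under 0.05. The array medians were 5.98 to 6.23, and the replicates of a group correlated at 0.9907 to 0.9986 across probe sets. The mean level of M10, M17, OLEO3 and PAP85, 4 genes of seed maturation, ran from 5.29 to 9.62 over the arrays and differed between replicates. On the dark fc2 arrays it was 5.84 and 5.85, below the 7.36 to 8.71 of the other dark arrays. M10, M17 and PAP85 were low there, but OLEO3 was not (10.09 and 10.19, against 9.91 and 9.79 in dark flu). The mean of OLEO3 was lower at 120 min than in the dark in every genotype, from 9.85 to 6.97 in flu. Those of M10, M17 and PAP85 went up in flu over that time, so this covariate joins genes that did not move alike. The part of the 4-gene mean in the light responses of fc2 and in the comparisons of dark fc2 with wt was not tested beyond the fit with that mean as a covariate. The root-hair genes EXPA7 and EXPA18 lay at 4.53 to 6.21 and 4.67 to 5.76, and the guard-cell gene FMA lay at 3.30 to 4.29. The SD of the values on an array was 2.28 to 2.42 and was lowest on the flu arrays at 30 min. In whole seedlings, fewer cells of a type and less RNA per cell cannot be told apart. WRKY42, WRKY47, WRKY53 and BHLH101 were among the 40% of probe sets with the lowest mean level. In flu at 30 min the median change of those dim probe sets was 0.145 and 20.4% of them rose, against 5.21% that fell.

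Among the light responses, that of flu held the most called members. In flu, 5 members rose and 3 fell by 30 min, where 48.1% of all probe sets changed (24.2% higher and 23.8% lower), and 7 rose and 3 fell by 120 min, where 46.1% changed (24.3% higher and 21.9% lower). In wt, 2 rose and 1 fell by 30 min against 6.41% of all probe sets (3.57% higher and 2.84% lower), and 2 rose and 4 fell by 120 min against 30.7% (11.9% higher and 18.8% lower). In fc1, 3 rose and 1 fell by 30 min against 7.22% (3.68% higher and 3.55% lower), and 3 rose and 3 fell by 120 min against 34.4% (15.3% higher and 19.1% lower). In fc2, 1 rose and 0 fell by 30 min against 3.02% (1.92% higher and 1.1% lower), and 3 rose and 0 fell by 120 min against 24.8% (10.8% higher and 14% lower). Without adjustment, 3 members in fc2 at 30 min and 4 at 120 min had p under 0.05 in limma, and of these 0 and 1 (bHLH121, -0.60) were lower. With each array scaled to 2 reference genes (reference scaling), members split as 2 higher and 2 lower at 30 min and 3 and 3 at 120 min in wt, 7 and 2, then 7 and 1, in flu, and 3 and 1, then 7 and 2, in fc1. The higher share of all called probe sets went from 44.4% to 79.1% in fc1 at 120 min.

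In flu most of the called WRKY genes rose, while the called bHLH genes went both ways. Of the 6 WRKY genes, 3 rose and 1 fell by 30 min with a median change of 0.64, and 4 rose and 1 fell by 120 min with a median of 0.85, while the medians of all probe sets were 0.06 and 0.01. Against wt at 120 min, 5 WRKY genes were higher and 1 was lower (median 0.93), whereas 2 bHLH genes were higher and 3 were lower (median -0.58). Of all probe sets, 28.4% were higher and 18.2% lower in that comparison, with a median of 0.06. With each array scaled to 2 reference genes, AT4G34270 and AT2G28390, the family medians became 0.79 for WRKY and -0.71 for bHLH, and the median of all probe sets shifted by -0.13. The 2 reference genes did not move alike. At 30 min the mean level of AT4G34270 was 7.785 in flu and 7.74 in wt, and that of AT2G28390 was 7.225 and 7.795. Reference scaling of flu against wt at 30 min therefore rests mostly on AT2G28390. The same gene weighs more in the scaling of fc1. The mean of AT2G28390 was 7.985 in dark fc1, 7.61 in fc1 at 120 min and 7.645 in dark wt. That of AT4G34270 was 7.84, 7.7 and 7.74 in these groups. In flu against wt at 30 min the bHLH median was -0.30, and it was 0.06 with equal spread on all arrays and -0.04 with reference scaling. These medians describe few genes and were not tested as a set. NAC014 alone stood for its family, and it fell in flu by 30 min, in wt by 120 min and in fc1 by 120 min.

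**Figure D1:**
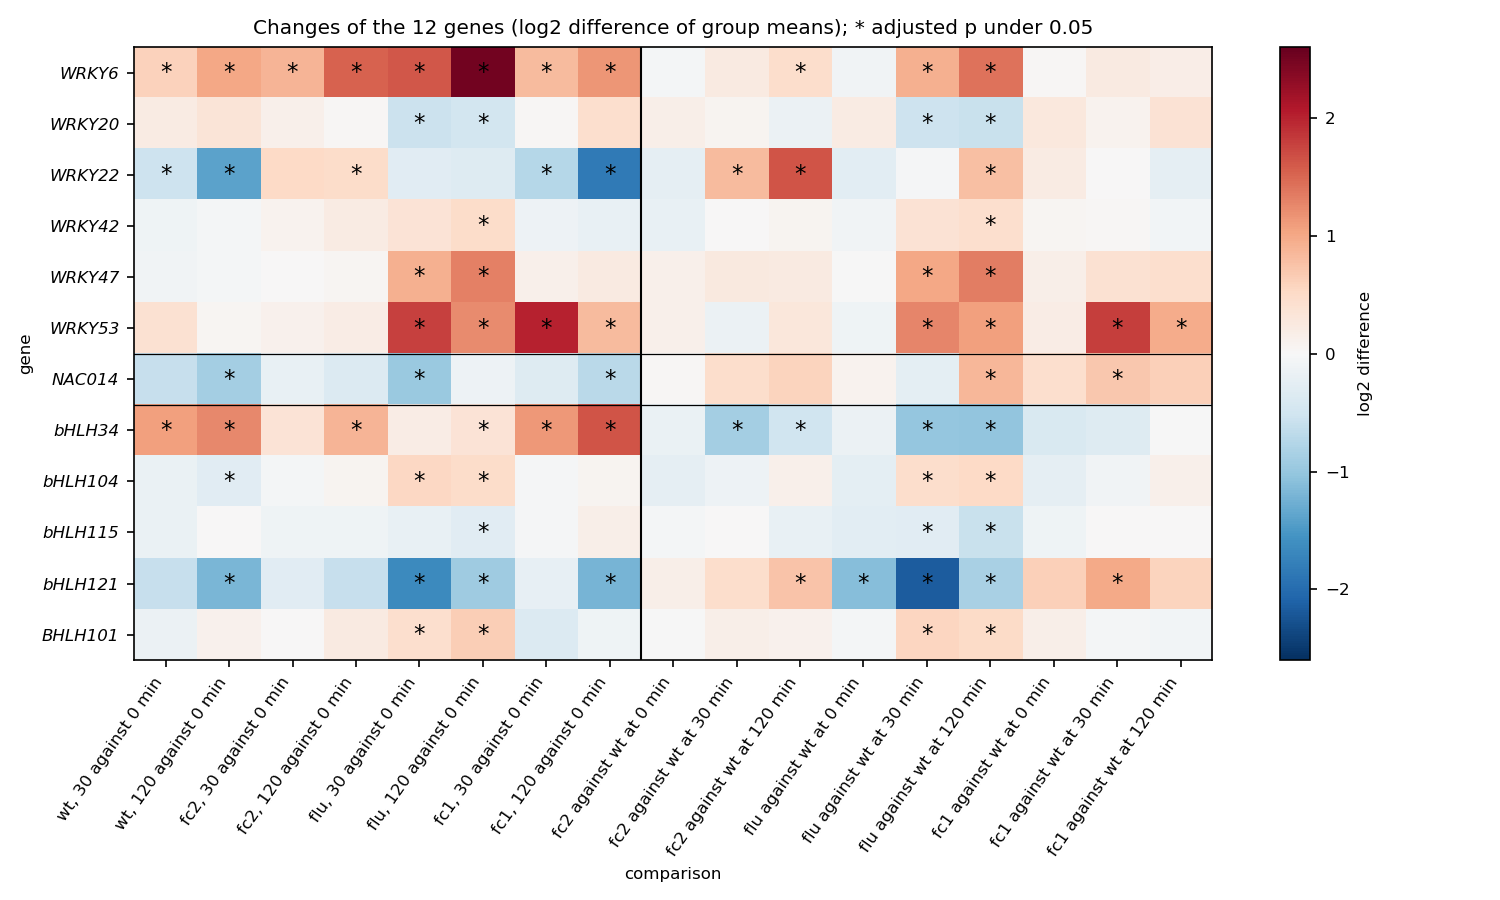
Changes of the 12 members on the log2 scale (colour, red higher and blue lower) in the 8 light responses, left of the vertical line, and in the 9 comparisons of a mutant with wt, right of it; each cell is a difference of 2 means of 2 arrays, and asterisks mark an adjusted p under 0.05. The columns of flu at 30 and 120 min hold the most asterisks, and all 12 members carry one for flu against wt at 120 min.

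WRKY6, a factor of senescence and defence that in Arabidopsis also represses the phosphate exporter gene PHO1, rose in the light in every genotype. In the dark its log2 level was 5.88 and 6.21 in wt, 5.96 and 6.01 in fc2, 5.74 and 6.18 in flu, and 6.08 and 6.06 in fc1. At 120 min it was 7.14 and 6.98 in wt, 7.41 and 7.64 in fc2, 8.42 and 8.53 in flu, and 7.25 and 7.20 in fc1. The dark groups overlapped, every lit array lay above every dark one, and both flu arrays lay above all others at 120 min. The rise by 120 min was 1.01 ± 0.15 in wt (adjusted p = 4.69e-05), 1.54 ± 0.15 in fc2 (adjusted p = 4.48e-07), 2.51 ± 0.15 in flu, a 5.72-fold rise (adjusted p = 1.49e-10), and 1.16 ± 0.15 in fc1 (adjusted p = 8.7e-06). At 30 min the level was 6.47 and 6.82 in wt, 6.89 and 6.86 in fc2, 7.69 and 7.46 in flu, and 6.76 and 7.01 in fc1. By 30 min it had risen by 0.60 ± 0.15 in wt, 0.89 ± 0.15 in fc2, 1.61 ± 0.15 in flu and 0.81 ± 0.15 in fc1, with adjusted p from 1.89e-07 to 0.0217. The early rise in wt was no longer called without wt replicate 1 at 0 min (0.43) or wt replicate 2 at 30 min (0.42), with adjusted p from 0.0076 to 0.294 over its alternatives.

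The response of WRKY6 in flu exceeded that in wt by 1.01 ± 0.22 at 30 min (adjusted p = 0.00184) and by 1.50 ± 0.22 at 120 min (adjusted p = 1.92e-05), as tested by the difference of the light responses. The same differences were 0.29 ± 0.22 (adjusted p = 0.999) and 0.52 ± 0.22 (adjusted p = 0.161) for fc2, and 0.21 ± 0.22 (adjusted p = 0.947) and 0.14 ± 0.22 (adjusted p = 0.926) for fc1. Direct comparison at 120 min put fc2 above wt by 0.46 ± 0.15 (adjusted p = 0.0443), a call that was lost without any of the 4 arrays concerned (0.35 to 0.58) and under both other scalings (0.27 and 0.36). Between 30 and 120 min WRKY6 rose further in fc2 (0.65 ± 0.15, adjusted p = 0.00525) and in flu (0.90 ± 0.15, adjusted p = 0.000171). Without fc2 replicate 2 at 120 min the late rise in fc2 was 0.54, with adjusted p from 0.00101 to 0.0736 over its alternatives. The late changes in wt (0.41 ± 0.15, adjusted p = 0.0527) and fc1 (0.34 ± 0.15, adjusted p = 0.12) did not pass. That in wt was called in 6 of its 11 alternatives, among them reference scaling (0.70, adjusted p = 0.000955) and leaving out wt replicate 2 at 30 min (0.59). That in fc1 was called in 1 of 11, reference scaling (0.53, adjusted p = 0.00888).

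WRKY53, a positive regulator of leaf senescence, rose in flu and fc1, with its highest levels at 30 min. Its dark level was 3.61 and 3.51 in wt, 3.69 and 3.71 in fc2, 3.51 and 3.40 in flu, and 3.68 and 3.81 in fc1. At 30 min it was 5.27 and 5.21 in flu and 5.49 and 6.02 in fc1, against 3.91 and 4.02 in wt and 3.96 and 3.67 in fc2. The flu and fc1 arrays at 30 min were the highest for this gene and did not overlap with any wt or fc2 array. The rise by 30 min was 2.01 ± 0.19 in fc1, 4.03-fold (adjusted p = 4.76e-07), and 1.78 ± 0.19 in flu, 3.45-fold (adjusted p = 5.46e-07), while the changes were 0.40 ± 0.19 in wt (adjusted p = 0.284) and 0.11 ± 0.19 in fc2 (adjusted p = 0.97). By 120 min the level had come down to 4.39 and 4.75 in fc1 and to 4.93 and 4.44 in flu, still above 3.76 and 3.46 in wt and 3.71 and 4.09 in fc2. The rise over the dark was still called at 120 min, with means of 4.685 against 3.455 in flu and 4.57 against 3.745 in fc1. Both of these calls held in every alternative fit that kept the dim probe sets. The fall from 30 to 120 min was -1.19 ± 0.19 in fc1 (adjusted p = 9.57e-05) and -0.56 ± 0.19 in flu (adjusted p = 0.0264).

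WRKY53 was the only member called in a comparison of the light responses of fc1 and wt. Its level in fc1 was above wt by 1.79 ± 0.19 at 30 min (adjusted p = 1.94e-05) and by 0.96 ± 0.19 at 120 min (adjusted p = 0.00397). The light response of fc1 exceeded that of wt by 1.60 ± 0.26 at 30 min (adjusted p = 0.00888) and by 0.78 ± 0.26 at 120 min (adjusted p = 0.238), and only the first passed. That of flu exceeded wt by 1.38 ± 0.26 (adjusted p = 0.000729) and 1.18 ± 0.26 (adjusted p = 0.0014). At 30 min, 42 probe sets, 0.189% of all, differed between the light responses of fc1 and wt. The fc1 interaction was not called without wt replicate 1 at 0 min (1.56), fc1 replicate 1 at 0 min (1.54), wt replicate 1 at 30 min (1.55) or fc1 replicate 2 at 30 min (1.34), with adjusted p from 0.00277 to 0.0911 over its alternatives. The excess of fc1 over wt at 120 min was not called without wt replicate 2 (0.81) or fc1 replicate 2 (0.78) at that time, nor was the late fall in flu without flu replicate 1 (-0.53) or 2 (-0.59) at 30 min or replicate 2 at 120 min (-0.31). On those groups the seed-maturation mean was 8.83 and 5.57 in fc1 at 30 min and 8.54 and 8.79 in wt at 30 min, and its part in the difference was not tested beyond the covariate, with which all these WRKY53 calls held.

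WRKY22, a factor of immune signalling downstream of a MAP kinase cascade and of dark-induced senescence, moved in opposite directions in wt and fc2. In wt its level was 6.82 and 6.65 in the dark, 6.17 and 6.22 at 30 min and 5.40 and 5.29 at 120 min. In fc1 it was 6.96 and 6.92, then 6.09 and 6.31, then 5.27 and 4.95. In fc2 it was 6.53 and 6.48, then 7.23 and 6.82, then 6.99 and 6.96, and in flu 6.36 and 6.55, then 6.35 and 5.99, then 6.29 and 5.95. The wt and fc1 arrays at 120 min were thus the lowest, the lit fc2 arrays were among the highest, and the flu arrays overlapped between 30 and 120 min. By 120 min the change was -1.39 ± 0.15 in wt (adjusted p = 1.33e-06), -1.83 ± 0.15 in fc1 (adjusted p = 3.17e-08), 0.47 ± 0.15 in fc2 (adjusted p = 0.0317) and -0.34 ± 0.15 in flu (adjusted p = 0.0875).

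At 120 min WRKY22 in fc2 was 1.63 ± 0.15 above wt, 3.10-fold (adjusted p = 6.57e-07), and in flu 0.78 ± 0.15 above wt (adjusted p = 0.000371). The light response at 120 min was higher than that of wt by 1.86 ± 0.22 in fc2 (adjusted p = 1.93e-05) and by 1.06 ± 0.22 in flu (adjusted p = 0.000723), and lower by -0.44 ± 0.22 in fc1, which did not pass (adjusted p = 0.54). Flu lay below fc2 by -0.86 ± 0.15 at both 30 min (adjusted p = 0.000232) and 120 min (adjusted p = 0.000216). WRKY22 was the only member called in either comparison of the light responses of fc2 and wt, where 0.441% of all probe sets differed at 30 min and 9.21% at 120 min. At 30 min that difference was 1.06 ± 0.22 (adjusted p = 0.0358), and without wt replicate 1 or 2 at 0 min (0.97 and 1.15), fc2 replicate 1 or 2 at 0 min (1.08 and 1.03), wt replicate 1 or 2 at 30 min (1.03 and 1.08) or fc2 replicate 1 at 30 min (0.85) it was no longer called. Nor was it called with only the groups compared in the fit (adjusted p = 0.0845). Likewise the fall in wt by 30 min (-0.54 ± 0.15, adjusted p = 0.0436) was lost without any of its 4 arrays (-0.63 to -0.46), and the rise in fc2 by 120 min was lost without any of its 4 arrays (0.45 to 0.50) and with the seed-maturation covariate (0.41).

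The excess of WRKY22 in fc2 over wt at 30 min was 0.83 ± 0.15 (adjusted p = 0.00669), and it was not called without wt replicate 1 (0.81) or fc2 replicate 1 (0.63) at that time. The fall in fc1 by 30 min was -0.74 ± 0.15 (adjusted p = 0.00386), and without fc1 replicate 1 at 30 min it was -0.63 (adjusted p up to 0.0744 over its alternatives). Between 30 and 120 min WRKY22 fell further in wt (-0.85 ± 0.15, adjusted p = 0.000408) and in fc1 (-1.09 ± 0.15, adjusted p = 3.16e-05).

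WRKY47 rose in flu, and its changes in the other genotypes did not pass. Its level was 4.35 and 4.47 in dark flu seedlings, 5.46 and 5.21 at 30 min and 5.88 and 5.54 at 120 min. All other arrays lay between 4.22 and 5.11, so the 4 lit flu arrays stood above every array of wt, fc2 and fc1. The rise was 0.93 ± 0.17 by 30 min (adjusted p = 0.0003) and 1.30 ± 0.17 by 120 min, 2.46-fold (adjusted p = 5.08e-06). The response exceeded that of wt by 1.02 ± 0.25 (adjusted p = 0.00458) and 1.34 ± 0.25 (adjusted p = 0.000242), and these calls held in every alternative fit that kept the dim probe sets, though the early rise is under 2-fold. In fc1 at 120 min the replicates were 4.51 and 5.11, and the change of 0.23 ± 0.17 did not pass (adjusted p = 0.359). Without fc1 replicate 1 at 120 min that change was 0.53 and was called, as was the excess over wt (0.73 in place of 0.43 ± 0.17), and reference scaling gave a called change of 0.49.

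WRKY42, which like WRKY6 represses PHO1 in Arabidopsis, stayed between 3.23 and 4.19 on all arrays. The highest values were those of flu replicate 2 at 30 min and at 120 min, whose groups read 3.61 and 4.01, and 3.67 and 4.19. In flu it rose by 0.47 ± 0.17 by 120 min (adjusted p = 0.0295) and lay 0.43 ± 0.17 above wt (adjusted p = 0.0428). Without flu replicate 2 at 120 min these values were 0.21 and 0.17. The rise was also lost without flu replicate 1 (0.49) or 2 (0.45) at 0 min, and the difference from wt without wt replicate 2 at 120 min (0.30), with reference scaling (0.30), with the seed-maturation covariate (0.43, adjusted p = 0.0799) and with the replicate number as a block (adjusted p = 0.0509).

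WRKY20, which carries a pair of WRKY domains, was the WRKY gene that fell in flu. Its level was 6.88 and 6.99 in dark flu seedlings, 6.61 and 6.15 at 30 min and 6.48 and 6.45 at 120 min, whereas wt read 6.53 and 6.90, then 6.81 and 7.03, then 7.36 and 6.74. In fc1 it read 6.95 and 7.03, then 7.03 and 7.00, then 7.28 and 7.57, and the fc2 arrays lay between 6.83 and 7.05. Of the 4 lit flu arrays, 3 were lower than every array of the other genotypes, and the remaining one lay above 1 dark wt array. The change in flu was -0.56 ± 0.18 by 30 min (adjusted p = 0.0152) and -0.47 ± 0.18 by 120 min (adjusted p = 0.0367), and the response fell below that of wt by -0.76 ± 0.25 (adjusted p = 0.0303) and -0.80 ± 0.25 (adjusted p = 0.0153). Over their alternatives the adjusted p of these 4 values ran up to 0.22, 0.155, 0.159 and 0.106. The early change was lost without flu replicate 2 at 0 min (-0.50) or at 30 min (-0.33), and the late one without any of its 4 arrays (-0.53 to -0.42). The early difference of the responses was lost without wt replicate 1 or flu replicate 2 at 0 min (-0.57 and -0.70) and without replicate 2 of wt or flu at 30 min (-0.65 and -0.53), and the late one without wt replicate 1 or flu replicate 2 at 0 min (-0.62 and -0.75). At 30 min flu lay below wt by -0.54 ± 0.18 (adjusted p = 0.0214), a call lost without replicate 2 of wt (-0.43) or flu (-0.31) and with reference scaling (-0.28). With wt replicate 1 at 120 min left out the late difference of the responses was -0.50, and flu lay below wt at 120 min by -0.28 in place of -0.59 ± 0.18 (adjusted p = 0.0104). Reference scaling gave -0.29 and -0.32 for the changes in flu and -0.42 for the early difference of the responses (adjusted p = 0.111), none of them called. The difference from wt at 120 min was also lost with the seed-maturation covariate (-0.48, adjusted p = 0.0511). It (adjusted p = 0.0738) and both differences of the responses (adjusted p = 0.0762 and 0.063) were lost with only the groups compared in the fit.

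**Figure D2:**
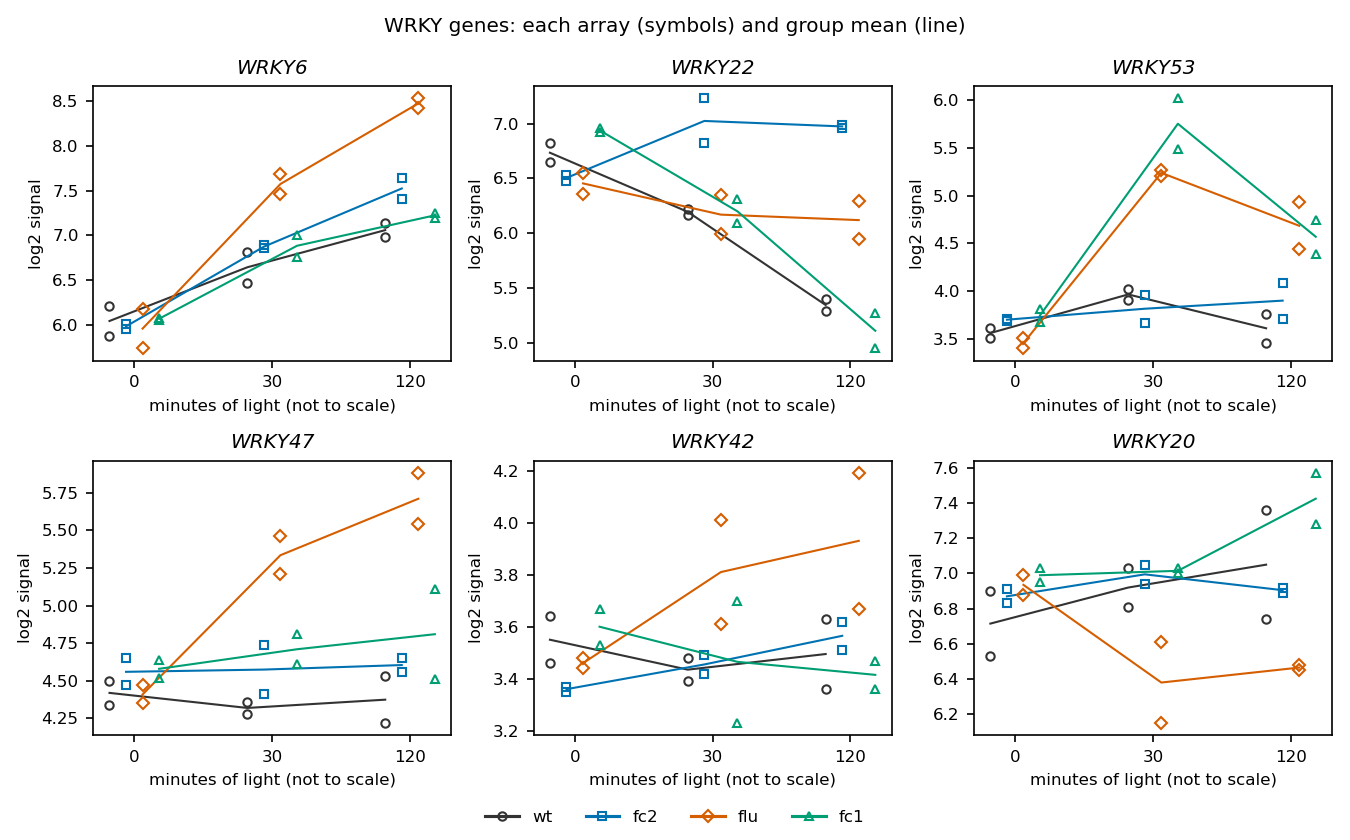
Log2 signal of the 6 WRKY probe sets on each array (symbols, 2 per group) at 0, 30 and 120 min of light, with lines through the group means; the times are evenly spaced and not to scale, genotypes are shifted sideways for sight, and each panel has its own vertical axis. WRKY6 rises in every genotype and most in flu, WRKY53 peaks at 30 min in flu and fc1, and WRKY22 falls in wt and fc1.

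A list of 30 WRKY factors of defence and stress had 4 measured members, WRKY6, WRKY22, WRKY47 and WRKY53. It was drawn up with earlier results of these data known, and its counts repeat those of the members above. The list does not hold WRKY20, which fell in flu at 30 and 120 min, or WRKY42, which rose in flu by 120 min. In flu, 3 of the 4 rose and 0 fell at both 30 and 120 min, WRKY22 being the member that did not pass in limma (p adjusted 0.138 and 0.0875), where 24.2% and 24.3% of all probe sets rose. Against wt at 120 min all 4 were higher in flu, where 28.4% of all probe sets were, with a median of 1.21 beside 0.06 over all probe sets. The list of partners and targets of WRKY factors had 0 of 16 members with a probe set that named them alone. ZAP1, the WRKY1 gene under another symbol and outside the rule, fell in flu by -0.79 ± 0.29 by 30 min (adjusted p = 0.0315) from 6.43 and 6.88 to 6.06 and 5.67.

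bHLH34, a group IVc activator of the iron deficiency response, rose in the light in wt and fc1 and less in flu. In wt its level was 6.04 and 6.27 in the dark, 7.17 and 7.26 at 30 min and 7.54 and 7.25 at 120 min. In fc1 it was 5.80 and 5.70, then 6.95 and 6.80, then 7.45 and 7.33. In fc2 it was 6.06 and 5.91, then 6.35 and 6.33, then 6.97 and 6.77, and in flu 5.94 and 6.07, then 5.99 and 6.42, then 6.37 and 6.35. At 30 and 120 min every wt and fc1 array lay above every flu array, and the fc2 arrays at 120 min lay between them. By 120 min the rise was 1.24 ± 0.14 in wt (adjusted p = 1.07e-06), 1.64 ± 0.14 in fc1, 3.12-fold (adjusted p = 2.35e-08), 0.89 ± 0.14 in fc2 (adjusted p = 7.15e-05) and 0.36 ± 0.14 in flu (adjusted p = 0.039). The last was lost without any of its 4 arrays (0.29 to 0.42).

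By 30 min bHLH34 had risen by 1.06 ± 0.14 in wt (adjusted p = 3.15e-05) and 1.12 ± 0.14 in fc1 (adjusted p = 1.22e-05), and the changes of 0.36 ± 0.14 in fc2 (adjusted p = 0.28) and 0.20 ± 0.14 in flu (adjusted p = 0.236) did not pass. In flu the change at 30 min was 0.46 with reference scaling, 0.36 with equal spread and 0.41 without flu replicate 1 at 30 min, and all of these were called. The response in flu was below that in wt by -0.86 ± 0.19 at 30 min (adjusted p = 0.00251) and -0.89 ± 0.19 at 120 min (adjusted p = 0.00106). For fc2 the same differences were -0.70 ± 0.19 (adjusted p = 0.194) and -0.36 ± 0.19 (adjusted p = 0.317). The level in fc2 was below wt by -0.88 ± 0.14 at 30 min (adjusted p = 0.00125) and by -0.53 ± 0.14 at 120 min (adjusted p = 0.011), the latter lost without wt replicate 1 (-0.38) or fc2 replicate 2 (-0.42) at 120 min. From 30 to 120 min bHLH34 rose in fc2 (0.53 ± 0.14, adjusted p = 0.00907) and fc1 (0.52 ± 0.14, adjusted p = 0.00769). The late rise in fc2 was lost without fc2 replicate 1 (0.54) or 2 (0.52) at 30 min or replicate 1 at 120 min (0.43), and that in fc1 without fc1 replicate 2 at 30 min (0.44) or replicate 1 at 120 min (0.46).

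bHLH104, another group IVc activator, rose in flu and fell in wt. Its level was 8.76 and 8.84 in dark flu seedlings, 9.40 and 9.28 at 30 min and 9.23 and 9.32 at 120 min. In wt it was 9.07 and 9.03, then 8.85 and 8.91, then 8.75 and 8.76, and in fc2 and fc1 all arrays lay between 8.65 and 8.98. The 4 lit flu arrays stood above all others. The rise in flu was 0.54 ± 0.09 by 30 min (adjusted p = 0.000116) and 0.47 ± 0.09 by 120 min (adjusted p = 0.000297), and the response exceeded that in wt by 0.71 ± 0.13 (adjusted p = 0.000541) and 0.77 ± 0.13 (adjusted p = 0.000108). In wt it fell by -0.29 ± 0.09 by 120 min (adjusted p = 0.0203), a call lost without any of its 4 arrays (-0.32 to -0.28), with reference scaling (-0.09) and with equal spread (-0.17).

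bHLH115, also of group IVc, was lower in flu than in wt in the light. Its mean was also lower in the dark, at 9.2 in flu and 9.465 in wt, a difference that was not called. The gene was called in 0 comparisons of light responses with wt in the main fit. For flu at 120 min that difference was called without the dimmest 40% of probe sets (-0.31, adjusted p = 0.0485), and without wt replicate 2 it was -0.405. Its level was 9.12 and 9.28 in dark flu seedlings, 9.02 and 8.98 at 30 min and 8.94 and 8.88 at 120 min, and every array of the other genotypes lay between 9.22 and 9.58. The lit flu arrays were the lowest for this gene. In flu it lay below wt by -0.57 ± 0.10 at 120 min (adjusted p = 7.02e-05), and this held in every alternative fit, though the difference is under 2-fold. The fall in flu by 120 min (-0.29 ± 0.10, adjusted p = 0.0198) was lost without flu replicate 2 at 0 min (-0.21) or at 120 min (-0.26), with reference scaling (-0.14) and with equal spread (-0.22). At 30 min flu lay below wt by -0.30 ± 0.10 (adjusted p = 0.0201), which reference scaling brought to -0.04 and equal spread to 0.06, a turn in direction, and which was lost without wt replicate 2 (-0.22) or flu replicate 2 (-0.28) at 30 min.

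bHLH121, the partner of the group IVc factors, was lower in flu at every time, the dark included. Its level was 8.78 and 8.90 in wt, 8.96 and 9.03 in fc2, 9.42 and 9.48 in fc1 and 7.66 and 7.82 in flu in the dark. At 30 min it was 7.81 and 8.69 in wt, 8.79 and 8.62 in fc2, 9.21 and 9.25 in fc1 and 6.39 and 5.79 in flu. At 120 min it was 7.98 and 7.34 in wt, 8.47 and 8.32 in fc2, 8.25 and 8.23 in fc1 and 6.81 and 6.84 in flu. Both flu arrays were below all others at each time, and the wt replicates differed by 0.88 at 30 min, the widest replicate gap of any member. The difference of flu from wt was -1.10 ± 0.23 in the dark (adjusted p = 0.0116), -2.16 ± 0.23 at 30 min, 4.47-fold lower (adjusted p = 9.23e-07), and -0.83 ± 0.23 at 120 min (adjusted p = 0.00546). Dark flu seedlings differed from wt at 3.32% of all probe sets (1.62% higher and 1.7% lower), and bHLH121 was the only member among them. At an unadjusted p under 0.05 bHLH104 (-0.25 ± 0.09) and bHLH115 (-0.27 ± 0.10) were also lower in dark flu seedlings.

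In the light bHLH121 fell by -1.65 ± 0.23 in flu by 30 min (adjusted p = 1.35e-05) and rose again by 0.73 ± 0.23 from 30 to 120 min (adjusted p = 0.0181). It fell by -1.18 ± 0.23 in wt (adjusted p = 0.000576) and by -1.21 ± 0.23 in fc1 (adjusted p = 0.000383) by 120 min, while the change of -0.60 ± 0.23 in fc2 did not pass (adjusted p = 0.0664), though it did with equal spread (-0.59). The response in flu was below that in wt by -1.06 ± 0.32 at 30 min (adjusted p = 0.0206) and differed from it by 0.27 ± 0.32 at 120 min (adjusted p = 0.589). Relative to wt, fc1 was higher by 0.98 ± 0.23 at 30 min (adjusted p = 0.00967) and fc2 by 0.73 ± 0.23 at 120 min (adjusted p = 0.034). In the 3 groups wt at 30 min, wt at 120 min and flu at 30 min, the lower replicate was the array with the smaller SD of values (2.36 against 2.40, 2.34 against 2.39, and 2.28 against 2.32). Over all 12 groups this held in 8 and not in the others, and the part of the array SD in these gaps was not tested. With equal spread the differences of flu from wt were -1.09, -2.05 and -0.86 at 0, 30 and 120 min.

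Several of these bHLH121 values rested on 1 wt array. Without wt replicate 1 at 120 min flu was below wt by -0.52 at that time, and without wt replicate 2 at 120 min fc2 exceeded wt by 0.41, neither of them called. The excess of fc2 was also not called without fc2 replicate 1 (0.66) or 2 (0.81), with reference scaling (0.54, adjusted p = 0.0782) or with only the groups compared in the fit (adjusted p = 0.104). Without wt replicate 1 at 30 min fc1 exceeded wt by 0.54, and without fc1 replicate 2 at 30 min by 0.96, with adjusted p from 0.000588 to 0.251 over the alternatives. The early difference between the responses of flu and wt was -0.62 without wt replicate 2 at 30 min, -0.76 without flu replicate 2 at 30 min, -1.0 without wt replicate 1 at 0 min, -0.98 without flu replicate 2 at 0 min and -0.72 with reference scaling, with adjusted p from 0.000797 to 0.14. The dark difference of flu from wt was -1.16 and -1.04 without wt replicate 1 or 2 and -1.02 without flu replicate 1, and the late rise in flu was 0.43 without flu replicate 2 at 30 min and 0.75 or 0.72 without either array at 120 min, none of them called. The difference of flu from wt at 30 min held in every alternative fit, as did the falls by 120 min in wt, fc1 and flu, of which that in flu was 1.89-fold.

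BHLH101, a group Ib partner of the iron uptake regulator FIT, was dim, at 3.31 to 4.38 on all arrays. In flu it read 3.80 and 3.63 in the dark, 4.26 and 4.05 at 30 min and 4.34 and 4.38 at 120 min, and all other arrays lay between 3.31 and 4.12. In flu it rose by 0.44 ± 0.16 by 30 min (adjusted p = 0.0325) and by 0.65 ± 0.16 by 120 min (adjusted p = 0.0028), and it lay above wt by 0.55 ± 0.16 (adjusted p = 0.0117) and 0.49 ± 0.16 (adjusted p = 0.0169). Only flu replicate 2 at 30 min among the lit flu arrays fell within the range of the other genotypes. The differences of its light response between flu and wt were 0.59 ± 0.23 (adjusted p = 0.0617) and 0.54 ± 0.23 (adjusted p = 0.0735) and did not pass. The first was called with reference scaling (0.94, adjusted p = 0.00868) and without wt replicate 2 at 0 min (0.73) or wt replicate 1 at 30 min (0.76). The second was called with the seed-maturation covariate (0.60, adjusted p = 0.04) and without wt replicate 2 at 0 min (0.68). The early rise was lost without flu replicate 2 at 0 min (0.35) or flu replicate 1 at 30 min (0.34). With only the groups compared in the fit, the early rise (adjusted p = 0.0557) and the difference from wt at 30 min (adjusted p = 0.0606) were lost too. The difference from wt was lost at 30 min without wt replicate 2 (0.39) or flu replicate 1 (0.45), and at 120 min without wt replicate 1 (0.46), flu replicate 1 (0.52) or flu replicate 2 (0.47) or with reference scaling (0.36).

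**Figure D3:**
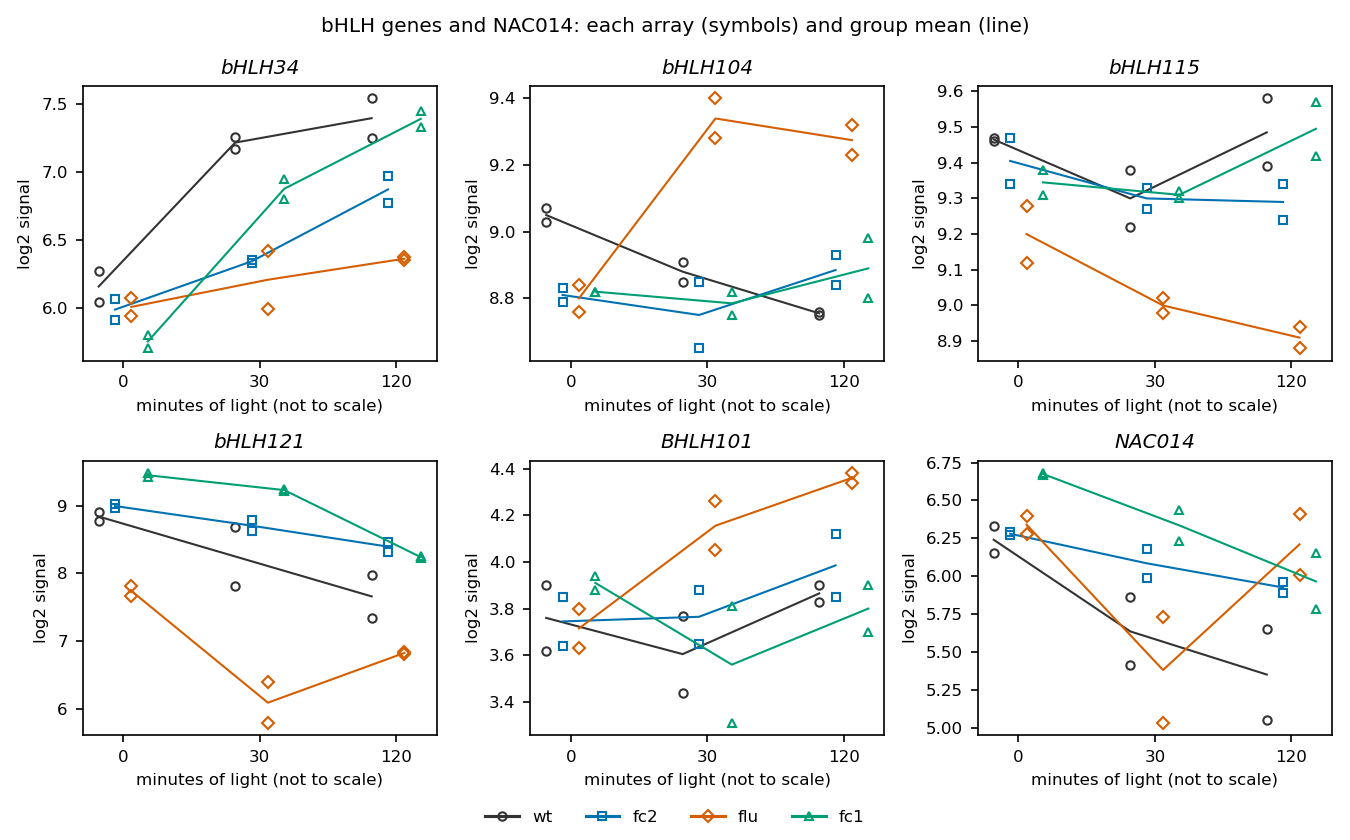
Log2 signal of the 5 bHLH probe sets and of NAC014 on each array (symbols, 2 per group) at 0, 30 and 120 min of light, with lines through the group means; the times are evenly spaced and not to scale, genotypes are shifted sideways for sight, and each panel has its own vertical axis. In flu, bHLH104 and BHLH101 rise, bHLH121 is lowest at 30 min, and bHLH34 in the light lies below its level in wt and fc1.

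Of 14 bHLH factors of iron uptake listed, 6 were measured: bHLH34, bHLH104, bHLH115, BHLH101, PYE (bHLH47), which restrains the iron deficiency response, and ILR3 (bHLH105), a further group IVc factor. In flu, 3 of the 6 rose and 0 fell by 30 min, and 4 rose and 1 fell by 120 min, with list medians of 0.32 and 0.41. Of all probe sets, 24.2% rose and 23.8% fell by 30 min and 24.3% rose and 21.9% fell by 120 min. The list does not hold bHLH121, which fell in flu at both times and lay below wt in flu at both. PYE rose in flu by 0.77 ± 0.17 by 30 min (adjusted p = 0.00126), from 5.95 and 5.93 to 6.53 and 6.89. ILR3 was higher in flu than in wt at 120 min by 0.40 ± 0.09 (adjusted p = 0.00144), at 10.58 and 10.70 against 10.20 and 10.29. Against wt, 3 of the 6 were higher and 2 were lower in flu at both 30 and 120 min, where 21.4% and 28.4% of all probe sets were higher and 19% and 18.2% lower. The list of targets of iron bHLH factors had 0 of 6 members with a probe set that named them alone. AT1G22490, which the gene table also names bHLH94, read 3.60 to 4.42 and was called in 0 comparisons by limma.

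NAC014 fell in the light in wt, fc1 and flu at different times. Its level was 6.15 and 6.33, then 5.41 and 5.86, then 5.65 and 5.05 in wt. In flu it was 6.28 and 6.40, then 5.03 and 5.73, then 6.01 and 6.41. In fc2 it was 6.27 and 6.29, then 6.18 and 5.99, then 5.96 and 5.89, and in fc1 6.67 and 6.68, then 6.23 and 6.44, then 5.78 and 6.15. The lowest arrays were flu replicate 1 at 30 min and wt replicate 2 at 120 min, and the flu replicates at 30 min differed by 0.70. It fell by -0.96 ± 0.22 in flu by 30 min (adjusted p = 0.00153) and rose again by 0.83 ± 0.22 to 120 min (adjusted p = 0.00645), and by 120 min it fell by -0.89 ± 0.22 in wt (adjusted p = 0.00408) and -0.71 ± 0.22 in fc1 (adjusted p = 0.0165). At 120 min it was higher in flu than in wt by 0.86 ± 0.22 (adjusted p = 0.00309), and at 30 min higher in fc1 than in wt by 0.70 ± 0.22 (adjusted p = 0.0343). At 30 min it was lower in flu than in fc2 by -0.70 ± 0.22 (adjusted p = 0.0135), a call lost without fc2 replicate 1 (-0.61) or flu replicate 1 (-0.35), with reference scaling (-0.44) and with the seed-maturation covariate (-0.45). The changes in fc2 were -0.20 ± 0.22 and -0.35 ± 0.22, with adjusted p of 0.935 and 0.287.

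The early fall of NAC014 in flu was called in every alternative fit, though it is under 2-fold. The fall in wt was not called without wt replicate 2 at 120 min (-0.59), nor that in fc1 without fc1 replicate 1 (-0.71) or 2 (-0.70) at 0 min, fc1 replicate 1 at 120 min (-0.53) or with reference scaling (-0.45). The late rise in flu was 0.48 without flu replicate 1 at 30 min and 0.63 without flu replicate 2 at 120 min, and the excess of flu over wt was 0.56 without wt replicate 2 and 0.66 without flu replicate 2 at 120 min, none of them called. The excess of fc1 at 30 min was 0.47 without wt replicate 1, 0.81 and 0.60 without fc1 replicate 1 or 2, and 0.54 with the seed-maturation covariate, none of them called. In 0 of the 6 comparisons of light responses with wt did NAC014 pass in limma, although 1, that of flu at 120 min (0.76 ± 0.31, adjusted p = 0.0624), had an unadjusted p under 0.05. That difference was called with the seed-maturation covariate (0.88) and without wt replicate 1 (1.06) or flu replicate 1 (0.96) at 120 min. In wt the change by 30 min (-0.60 ± 0.22, adjusted p = 0.135) was called with reference scaling (-0.68). Of 5 listed targets of NAC factors 2 were measured. AT2G21640 rose in fc2 by 1.77 ± 0.16 by 120 min (adjusted p = 1.49e-07) and fell in flu by -1.05 ± 0.16 (adjusted p = 2.47e-05). In the dark it lay above wt in flu by 1.00 ± 0.16 (adjusted p = 0.00157), at 8.82 and 8.78 against 7.62 and 7.97. At 120 min flu and wt did not differ past the threshold (-0.18 ± 0.16, adjusted p = 0.406). OSM34, an osmotin gene, rose in flu by 1.54 ± 0.15 by 120 min (adjusted p = 8.81e-08). It also rose in fc2 and fell in fc1 by that time. Of the 2 targets, 2 rose and 0 fell in fc2 by 120 min (10.8% and 14% of all probe sets). In flu 1 rose and 1 fell (24.3% and 21.9%), in fc1 0 rose and 1 fell (15.3% and 19.1%), and in wt 0 rose and 0 fell (11.9% and 18.8%). Any link of these genes to NAC014 was not tested.

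No MYB gene was measured under its family name, and of the 10 listed targets of flavonoid MYB factors 4 were measured. They were DFR, which makes leucoanthocyanidins, the flavonol glycosyltransferase genes UGT78D1 and UGT78D2, and CHIL, which assists chalcone synthesis. In wt and in fc1 4 of the 4 rose by 120 min and 0 fell, in fc2 2 rose and 0 fell, and in flu 1 rose and 2 fell. Of all probe sets, 11.9% rose in wt, 15.3% in fc1, 10.8% in fc2 and 24.3% in flu by that time, where 21.9% fell. The change of CHIL by 120 min was 3.02 ± 0.12 in wt (adjusted p = 4.4e-12), 3.59 ± 0.12 in fc1 (adjusted p = 3.1e-13), 0.94 ± 0.12 in fc2 (adjusted p = 1.28e-05) and -1.93 ± 0.12 in flu (adjusted p = 2.87e-10). The dark levels differed: the mean of CHIL was 7.1 in wt, 6.31 in fc1, 7.585 in fc2 and 8.015 in flu. In the dark CHIL was thus lower in fc1 and higher in flu than in wt, and UGT78D2 was higher in flu. At 120 min the means of CHIL were 10.12 in wt, 9.9 in fc1, 8.525 in fc2 and 6.09 in flu. UGT78D2 rose in all 4 genotypes by 120 min, by 3.04 ± 0.13 in wt and 1.15 ± 0.13 in flu. Of 12 listed light signalling genes 3 were measured, HYH, IAA29 and FHL. HYH, a bZIP activator of light responses, rose in wt by 1.53 ± 0.20 (adjusted p = 7.25e-06) and fell in flu by -0.96 ± 0.20 (adjusted p = 0.000437) by 120 min. By that time 1 (HYH) rose and 2 (IAA29 and FHL) fell in wt, fc2 and fc1. In flu 0 rose and 2 (HYH and IAA29) fell. Of all probe sets, 18.8% fell in wt, 14% in fc2 and 19.1% in fc1. Against wt at 120 min, IAA29 and FHL were higher in flu and HYH was lower.

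In the dark 1 member, bHLH121, differed from wt, and it did so in flu (-1.10 ± 0.23, adjusted p = 0.0116). Of the 12 members, 0 differed between fc2 and wt in limma, where 0.036% of all probe sets did (0.018% in each direction), and 0 differed between fc1 and wt, where 2.74% did (1.31% higher and 1.43% lower). At an unadjusted p under 0.05 these counts were 1 (bHLH104) and 3 (bHLH34, bHLH104 and bHLH121). In the light, fc2 differed from wt at 2 members at 30 min (1 higher and 1 lower, against 1.52% of all probe sets, 0.531% higher and 0.986% lower) and 4 at 120 min (3 higher and 1 lower, against 17.2%, 9.71% higher and 7.53% lower). For fc1 the counts were 3 members at 30 min, all higher (against 18.4% of all probe sets, 9.68% higher and 8.73% lower), and 1 higher at 120 min (against 9.25%, 5.71% higher and 3.54% lower). At an unadjusted p under 0.05 bHLH34 was lower in fc1 at 30 min (-0.34 ± 0.14) and 0 members were lower at 120 min. The count at 120 min was 4 without wt replicate 1, 0 without wt replicate 2, 2 without fc1 replicate 1 and 0 without fc1 replicate 2 at that time. For flu they were 9 at 30 min (5 higher and 4 lower, against 40.4%, 21.4% higher and 19% lower) and 12 at 120 min (8 higher and 4 lower, against 46.6%, 28.4% higher and 18.2% lower), and with each array left out in turn the latter count was 9 to 11. With reference scaling, fc2 at 120 min had 1 member higher and 2 lower. The higher share of all called probe sets went from 56.3% to 17%. Flu then had 6 higher and 2 lower at 30 min and 6 and 4 at 120 min, and fc1 had 0 and 3 in the dark and 1 and 0 at 120 min.

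The difference between the light responses of a mutant and wt was tested directly. For flu 4 members were higher and 3 lower than in wt at 30 min, where 27.9% of all probe sets differed (13.9% higher and 14% lower), and 5 higher and 2 lower at 120 min, where 38.3% did (23% higher and 15.3% lower). For fc2 1 member, WRKY22, was higher at each time and 0 were lower, against 0.18% higher and 0.261% lower at 30 min and 4.76% higher and 4.45% lower at 120 min. For fc1 1 was higher and 0 were lower at 30 min (0.162% of all probe sets higher and 0.027% lower), and 0 of 12 passed at 120 min in limma (1% of all probe sets, 0.698% higher and 0.306% lower), where 2 members, WRKY53 and bHLH104, had an unadjusted p under 0.05. With 0 calls lower in fc2 and fc1, the members with an unadjusted p under 0.05 and a negative difference were bHLH34 in fc2 at 30 min and none in fc1. With reference scaling the split of the response differences for flu at 30 min was 7 higher and 1 lower, and the median of all probe sets moved by 0.34.

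**Figure D4:**
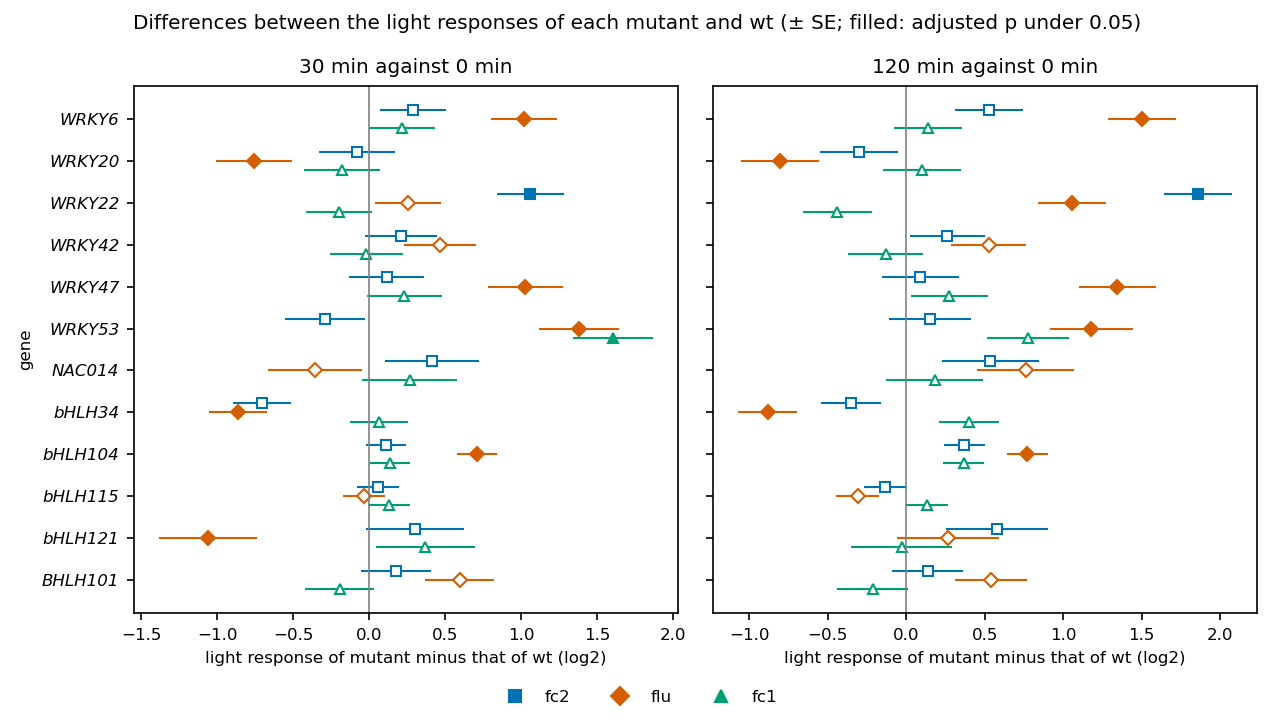
Difference between the light response of each mutant and that of wt (log2, horizontal axis) for the 12 members at 30 min (left) and 120 min (right); points are estimates from 2 arrays in each of 4 groups, bars are ± SE, and filled points have an adjusted p under 0.05. Filled points are mostly those of flu, with WRKY22 in fc2 at both times and WRKY53 in fc1 at 30 min besides.

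Flu and fc2 were also compared directly. At 30 min flu was higher than fc2 at 4 members and lower at 5, where 47.9% of all probe sets differed (25.4% higher and 22.5% lower), and at 120 min higher at 4 and lower at 4, where 37.5% did (21.5% higher and 16% lower). With reference scaling the split at 30 min was 6 higher and 3 lower. WRKY6, WRKY47, WRKY53 and bHLH104 were higher in flu at both times. For WRKY53 the excess was 1.43 ± 0.19 at 30 min (adjusted p = 9.56e-06) and 0.79 ± 0.19 at 120 min (adjusted p = 0.00244), the latter lost without fc2 replicate 1 (0.59) or flu replicate 1 (0.54) at 120 min. bHLH121 was lower in flu by -2.62 ± 0.23 at 30 min, 6.13-fold (adjusted p = 1.31e-07), and by -1.57 ± 0.23 at 120 min (adjusted p = 2.36e-05), and both held in every alternative fit. bHLH34 was lower in flu at 120 min by -0.51 ± 0.14 (adjusted p = 0.00564; -0.41 and not called without fc2 replicate 1) and overlapped at 30 min (-0.14 ± 0.14, adjusted p = 0.423).

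From 30 to 120 min, 3 members rose and 1 fell in flu, where 37% of all probe sets changed (19.1% higher and 17.9% lower). In fc2, 2 rose and 0 fell, where 19.4% changed (9.38% higher and 9.99% lower). In fc1, 1 rose and 3 fell, where 26.6% changed (12.9% higher and 13.6% lower), and in wt 0 rose and 1 fell, where 27.4% changed (11.3% higher and 16.2% lower). At an unadjusted p under 0.05, 1 member of wt, WRKY6, was higher, and in fc2 0 were lower. With reference scaling 5 members rose and 1 fell in wt and 4 rose and 3 fell in fc1, and the median of all probe sets moved by 0.28 and 0.19. WRKY53 in flu and fc1 and WRKY22 in wt and fc1 were among the falls, while WRKY6 in flu and fc2 and bHLH34 in fc2 and fc1 were among the rises. In fc1 the WRKY genes WRKY22 and WRKY53 and, among the bHLH genes, bHLH121 (-0.99 ± 0.23, adjusted p = 0.00311) fell while bHLH34 rose.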

How the data were processed

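Whole-seedling RNA was labelled as cRNA and hybridised to 24 arrays, per the labels' protocols. The authors deposited log2 signals, and RMA is the method that the submitters' processing notes name for them. RMA in its usual form corrects background, normalizes by quantiles and summarises probes, so a shift shared by most genes of an array is removed. The RMA version is not given in the sources used here. Arrays give no read depth, and 2 arrays per group limit the precision.

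All 22217 probe sets were fitted with 12 group means in limma 3.58.1 (R 4.3.3) with empirical Bayes moderation. Each of 29 contrasts was tested two-sided, and its p-values were adjusted by Benjamini-Hochberg over all probe sets. The same procedure was tested on simulated data. Tables and figures used Python 3.11.15, pandas 2.3.3 and matplotlib 3.10.9. Gene names came from the platform annotation and the RefSeq gene table.

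All members were to be described, those with non-overlapping called groups in full, with up to 3 measured members of each role list. Members, lists and tests were chosen with earlier results of these data known. Alternatives were scaling to 2 reference genes, equal spread on all arrays, a filter on the dimmest 40% of probe sets, robust variances with a trend, a block for the replicate number, fitting only the groups compared, the seed-maturation mean as a covariate, a 2-fold threshold and leaving out each array. A planned search of promoters for motifs was not made, since sequences were not used here. Further lists of WRKY, NAC, MYB and bHLH genes had 0 members with a probe set that named them alone.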

Additional observations from a re-analysis of the deposited data

Results flagged for a closer look

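Differences between the light response of a mutant and that of wt passed the interaction test for 17 combinations of member, mutant and time, and these are the values on the log2 scale (mutant minus wt, limma). In fc2, WRKY22 differed by 1.06 at 30 min and by 1.86 at 120 min. In fc1, WRKY53 differed by 1.60 at 30 min.

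In flu at 30 min the differences were positive for WRKY6 (1.01), WRKY47 (1.02), WRKY53 (1.38) and bHLH104 (0.71), and negative for WRKY20 (-0.76), bHLH34 (-0.86) and bHLH121 (-1.06). At 120 min they were positive for WRKY6 (1.50), WRKY22 (1.06), WRKY47 (1.34), WRKY53 (1.18) and bHLH104 (0.77), and negative for WRKY20 (-0.80) and bHLH34 (-0.89). bHLH121 differed at 30 min and not detectably at 120 min (0.27), and WRKY22 the reverse (0.26 at 30 min). Groups of 2 arrays are too small to test for outlying arrays.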

How the results depend on the processing

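Of 348 member values 118 were called, 71 of them in every alternative fit that held the member and 73 with each array left out in turn. The fit without the dimmest 40% of probe sets did not hold WRKY42, WRKY47, WRKY53 and BHLH101, and a 2-fold threshold was applied to the counts alone. With an array left out, the lone array of its group is assumed to vary like the others. With equal spread on all arrays bHLH115 at 30 min turned from lower to higher in flu against wt (0.0588) and against fc2 (0.1604), neither of them called. The cause of the moved counts below was not tested, except that fewer probe sets or samples enter some fits by construction and a 2-fold threshold adds a condition.

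Counts of called members moved by over 1.5 times as follows. With only the compared groups in the fit, light responses gave 1 for wt at 30 min (3 otherwise) and 5 for fc2 at 120 min (3). From 30 to 120 min flu gave 2 (4). Against wt, fc2 gave 1 at 30 min (2) and 1 at 120 min (4), flu 5 at 30 min (9), and fc1 2 in the dark (0), 1 at 30 min (3) and 0 at 120 min (1). The response differences at 30 min gave 0 for fc2 and 0 for fc1 (1 each). Over all member values this fit lost 30 calls and gained 7, and not all of these are named gene by gene above.

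A 2-fold change in addition left, for 30 and 120 min against dark, 1 in wt at 30 min, 0 and 1 in fc2, 3 and 3 in flu, and 2 in fc1 at 30 min. For 30 to 120 min it left 0 in wt, 0 in fc2, 0 in flu and 2 in fc1. Against wt it left 0 and 1 for fc2, 4 and 4 for flu, and 1 and 0 for fc1 at 30 and 120 min. It left 4 and 4 response differences of flu, and 2 and 2 members for flu against fc2.

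Without the dimmest 40% of probe sets, which hold 4 members, flu gave 5 at 30 min and 6 at 120 min, wt from 30 to 120 min 3, fc1 against wt at 120 min 0, and the response differences 2 for fc2 at 120 min and 0 for fc1 at 30 min. Reference scaling gave 6 for wt and 7 for fc1 from 30 to 120 min, and 3 for fc1 against wt in the dark. For wt from 30 to 120 min (1), equal spread, trend and robust variances, and the replicate block gave 2 each, and the seed-maturation covariate gave 2 for the response difference of fc2 at 120 min (1).

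With 1 array left out, counts ran from 1 to 2 (wt at 30 min), 1 to 2 (fc2 at 30 min), 2 to 2 (fc2 at 120 min), 6 to 10 (flu at 30 min), 6 to 9 (flu at 120 min, 6 without replicate 2 at 0 or 120 min), 1 to 2 (wt late), 1 to 1 (fc2 late) and 1 to 3 (flu late, 1 without replicate 2 at 120 min). Against wt they ran from 1 to 3 (fc2 at 30 min), 1 to 3 (fc2 at 120 min, 1 without fc2 replicate 2), 0 to 1 (flu in the dark), 6 to 9 and 9 to 11 (flu in the light), 1 to 3 (fc1 at 30 min) and 0 to 4 (fc1 at 120 min). Response differences ran from 0 to 1 (fc2 and fc1 at 30 min), 5 to 8 and 6 to 9 (flu), and flu against fc2 from 6 to 9 and 6 to 8.

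Reference scaling also moved the higher share of all called probe sets by over 10 points: from 55.6% to 36.2% and 38.7% to 71.9% in wt, 50.4% to 76.2% and 52.6% to 65.4% in flu, and 50.9% to 63.9% and 44.4% to 79.1% in fc1. Members split then 2 higher and 2 lower, and 3 and 3, in wt, 7 and 2, and 7 and 1, in flu, and 7 and 2 in fc1 at 120 min. Against wt the share went from 56.3% to 17% (fc2 at 120 min), 52.9% to 80.7% and 61% to 48.3% (flu), and 61.7% to 23.6% (fc1 at 120 min), and members split 1 and 2 (fc2), 6 and 2, and 6 and 4 (flu). For flu against fc2 at 30 min it went from 53% to 78.6% (members 6 and 3), and for the response differences from 49.7% to 82.8% (flu at 30 min), 51.7% to 21.1% (fc2 at 120 min), 85.7% to 95.8% and 69.5% to 80.9% (fc1). From 30 to 120 min it went from 41.1% to 87.4% in wt, 48.4% to 70.8% in fc2, 51.6% to 37.9% in flu and 48.7% to 79.4% in fc1, and in the dark from 48.9% to 28.9% for flu and 47.7% to 4.8% for fc1 against wt.

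Replicate numbers showed no pairing shared by all groups: over 66 pairs of groups the deviations correlated at -0.54 to 0.40 (median -0.01), with 19 over 0.1 and 34 below 0. Pairing within some of the groups was not tested. With the replicate number as a block WRKY42 in flu against wt at 120 min was no longer called (adjusted p = 0.0509), and WRKY6 in wt from 30 to 120 min was (adjusted p = 0.0424). Averaging probe sets per gene gave no other value, since each member had 1.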
